A study of Glycine max with 4 samples.

Results

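The 1 Mb windows of the soybean genome with the most sites bound in ChIP of GLYMA.07G038400 were examined for where they lie, how their sites are spaced, how strong the sites are and how well they were found again. Each chromosome was divided into consecutive windows of 1 Mb from its first base, each replicate 1 peak was placed by its summit, and the windows with 100 or more replicate 1 peaks were kept. This gave 22 of 956 windows, or 2.30%. They contained 2369 of the 30908 replicate 1 peaks on chromosomes and 1920 of the 25350 replicate 2 peaks. The replicate 1 counts chose the windows, so they are a description, and replicate 2 is the measurement that the choice did not use. The windows were set against the 251 windows with 20 to 60 replicate 1 peaks, which held 10194 and 8335 peaks and are called comparison windows.

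The sites come from ChIP-seq, that is, sequencing of the DNA that an antibody pulls down together with a crosslinked protein (chromatin immunoprecipitation). The tissue was whole embryos of the cultivar Williams 82 at the early maturation stage, dissected from seeds 6 to 7 mm long, with an antibody against a peptide of the protein (amino acids 188 to 202). The series holds 2 ChIP replicates, each with its own input control of total chromatin, all from the same cultivar, tissue and stage. There was no second condition and no ChIP without the protein, so sites that the antibody recovers by itself cannot be told from bound ones. With 2 samples in 1 group no test over samples was possible. Differences below are therefore given as the values of each replicate, with Wilson intervals (95%) for shares, which cover counting error only.

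Peak names in the deposited lists contain GRF5, an abbreviation that no label explains. In plants GRF commonly stands for growth-regulating factor, a family of plant-specific transcription factors that bind DNA through a WRC domain, work together with co-activators called GIFs and are known for promoting cell proliferation in young organs. Early maturation is the stage at which the embryo passes from cell division to the storage of protein and oil. Soybean chromosomes have gene-rich arms on either side of a large, repeat-rich and gene-poor region around the centromere. Genes and sequence in the windows were not analysed here.

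The densest windows carried several times as many sites as the typical window, in both replicates. A dense window held between 100 and 119 replicate 1 peaks (median 106.5) and between 75 and 106 replicate 2 peaks (median 87.5), of which 67 to 91 were found in both (median 78). Over all windows the medians were 19 and 15. The least populated dense window in replicate 2 (75 peaks) still held more than the most populated comparison window (59 peaks). The rule itself set these classes apart in replicate 1. The 196 windows with more than 60 and fewer than 100 replicate 1 peaks belong to neither. Outside the dense windows replicate 2 counts reached 90, so the dense windows were not separate from all other windows in replicate 2.

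**Figure D1:**
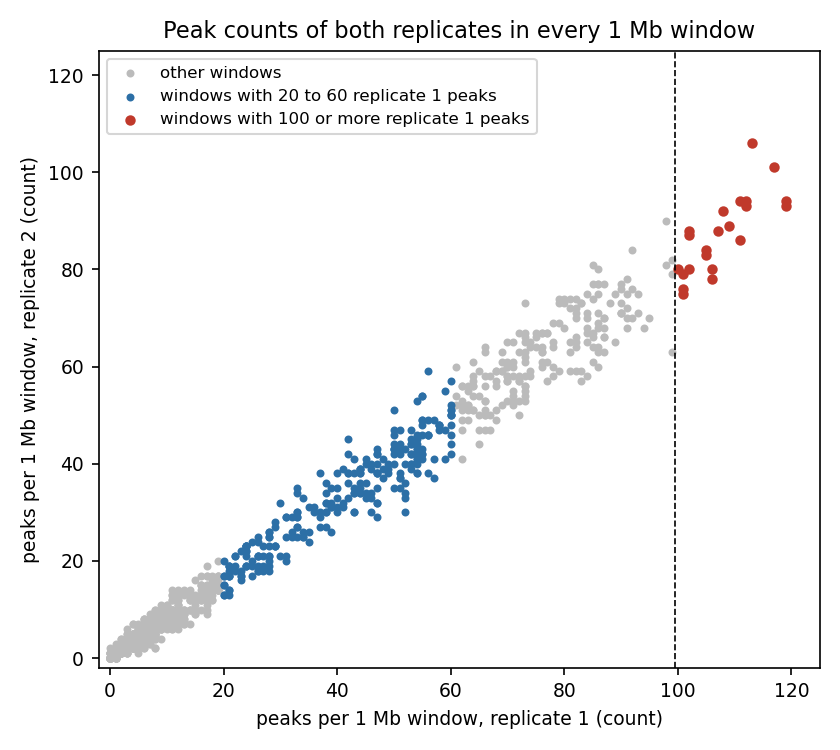
Number of replicate 1 peaks (horizontal axis) and replicate 2 peaks (vertical axis) in each of the 956 windows of 1 Mb, with 1 point per window and a dashed line at the threshold of 100. The 22 dense windows (red) lie between 75 and 106 in replicate 2, above the highest comparison window (blue) at 59. Windows of neither class reach 90.

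The most populated windows were neighbours at 3 to 4 Mb and 4 to 5 Mb on chromosome 11, each with 119 peaks in replicate 1. In replicate 2 they held 94 and 93 peaks, and 82 and 88 sites were found in both. The window at 3 to 4 Mb on chromosome 4 followed, with 117 peaks in replicate 1 and 101 in replicate 2. The window at 3 to 4 Mb on chromosome 6 had 113 and 106. These last 2 were the only windows of the genome with 100 or more peaks in replicate 2. The order of the windows therefore changed between replicates near the top. Of the 24 windows with the most replicate 2 peaks, 18 were dense.

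Next came the window at 48 to 49 Mb on chromosome 10 with 112 and 94 peaks, and that at 1 to 2 Mb on chromosome 16 with 112 and 93. Chromosome 17 held windows with 111 and 94 peaks (3 to 4 Mb), 111 and 86 (5 to 6 Mb), 105 and 84 (8 to 9 Mb), 101 and 79 (7 to 8 Mb) and 100 and 80 (4 to 5 Mb). It thus carried 5 dense windows within 6 Mb of sequence, more than any other chromosome. On chromosome 13 the windows at 34 to 35 Mb (109 and 89 peaks), 21 to 22 Mb (102 and 87), 38 to 39 Mb (102 and 80) and 35 to 36 Mb (101 and 76) were dense.

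Single windows lay on chromosome 7 at 4 to 5 Mb (108 and 92 peaks), on chromosome 14 at 5 to 6 Mb (106 and 80) and on chromosome 1 at 52 to 53 Mb (106 and 78). Chromosome 9 had windows at 42 to 43 Mb (107 and 88) and 41 to 42 Mb (102 and 88). The remaining ones were at 2 to 3 Mb on chromosome 10 (105 and 83) and at 1 to 2 Mb on chromosome 11 (101 and 75). In all, 11 of the 20 chromosomes carried a dense window and 9 carried none.

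The threshold of 100 does not separate a distinct class. Just inside it lay the windows on chromosome 13 at 38 to 39 Mb, chromosome 17 at 7 to 8 Mb, chromosome 13 at 35 to 36 Mb, chromosome 11 at 1 to 2 Mb and chromosome 17 at 4 to 5 Mb, with 102, 101, 101, 101 and 100 replicate 1 peaks. Just outside it lay chromosome 11 at 5 to 6 Mb, chromosome 19 at 45 to 46 Mb and chromosome 10 at 49 to 50 Mb, each with 99, and chromosome 10 at 47 to 48 Mb and chromosome 6 at 4 to 5 Mb, each with 98. Their replicate 2 counts were 80, 79, 76, 75 and 80 inside and 82, 79, 63, 90 and 81 outside, so the groups on either side of the threshold overlapped in replicate 2. A further 196 windows had between 61 and 99 replicate 1 peaks.

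Selection on replicate 1 did not leave a large deficit in replicate 2. The ratio of replicate 2 to replicate 1 peaks was 0.811 in the dense windows, 0.818 in the comparison windows and 0.820 over all chromosomes. Among single dense windows it ran from 0.736 (chromosome 1 at 52 to 53 Mb) to 0.938 (chromosome 6 at 3 to 4 Mb), and 18 of the 22 lay within the interquartile range of the comparison windows. Ranked by replicate 2, 24 windows (2.51% of 956) had at least 80 peaks, the count of rank 22, and 18 of these were dense in replicate 1. The lowest replicate 2 rank of a dense window was 37, on chromosome 11 at 1 to 2 Mb. Per Mb, replicate 1 had 107.7 peaks in dense and 41.2 in comparison windows, a ratio of 2.62. Replicate 2 had 87.3 and 33.6, a ratio of 2.59.

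Nearly all dense windows lay towards the chromosome ends, a few megabases inside them. Their centres were between 1.50 and 21.5 Mb from the nearest end (median 4.50 Mb), taking the end of the last peak as the end of the chromosome. Of the 22, 21 had their centre in the outer 25% at either end of their chromosome, against 181 of the 251 comparison windows (72.1%) and 482 of all windows (50.4%). The exception was the window at 21 to 22 Mb on chromosome 13, whose centre lay 21.5 Mb from the nearest end. No dense window was the first or last of its chromosome. Few windows lie there: 45 of all 956 and 26 of the 251 comparison windows had their centre less than 1 Mb from an end. The last window of a chromosome was also cut at the last peak, so 936 of the 956 windows were complete.

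The windows directly around the dense ones also held many sites. A total of 11 had another dense window directly next to them, in stretches on chromosome 17 (3 to 6 Mb and 7 to 9 Mb), chromosome 11 (3 to 5 Mb), chromosome 13 (34 to 36 Mb) and chromosome 9 (41 to 43 Mb). The 30 adjacent windows that were not dense themselves held a median of 84 replicate 1 peaks (range 51 to 99) and of 70.5 replicate 2 peaks (40 to 90). Every one of them was therefore well above the genome-wide medians. Their replicate 1 counts are below 100 by the rule, and in replicate 2 not all were lower than their dense neighbour. On chromosome 1 the window at 53 to 54 Mb held 80 replicate 2 peaks, against 78 in the dense window beside it. The adjacent windows with the fewest replicate 1 peaks were on chromosome 7 at 5 to 6 Mb (51 and 47 peaks) and on chromosome 9 at 40 to 41 Mb (52 and 40). At a distance of 3 windows the medians were 71 to 72 peaks in replicate 1 and 58 to 62 in replicate 2. Unlike the adjacent windows above, these include dense windows, 4 of 19 on the lower side and 4 of 22 on the higher side. Single windows at that distance had as few as 12 and 14.

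Inside the windows the sites were spread over nearly the whole megabase, unevenly. Of the 220 segments of 100 kb in the dense windows, 7 held 20 or more replicate 1 peaks and 10 held 3 or fewer, with a median of 11. The fullest segment was on chromosome 4 at 3300001 to 3400000, with 27 peaks in replicate 1 and 24 in replicate 2. The next was on chromosome 7 at 4800001 to 4900000, with 24 and 23. Directly after it, at 4900001 to 5000000, lay one of the emptiest segments, with 1 and 2 peaks. The only segment without a replicate 1 peak was on chromosome 10 at 48100001 to 48200000, and it held 1 replicate 2 peak. It lies within the longest gap between replicate 1 summits in a dense window, of 134.2 kb.

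The replicates placed the full and the empty segments alike. The 7 fullest segments of replicate 1 had at least 11 replicate 2 peaks each, and the 10 emptiest had at most 3. Across the 220 segments Spearman's rho between the 2 counts was 0.87, a description across segments that share their libraries. The window at 3 to 4 Mb on chromosome 11 had the highest minimum, with 9 to 21 replicate 1 peaks in each segment. Positions are 1-based and refer to the authors' assembly; its name was not given in the sources used here.

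**Figure D2:**
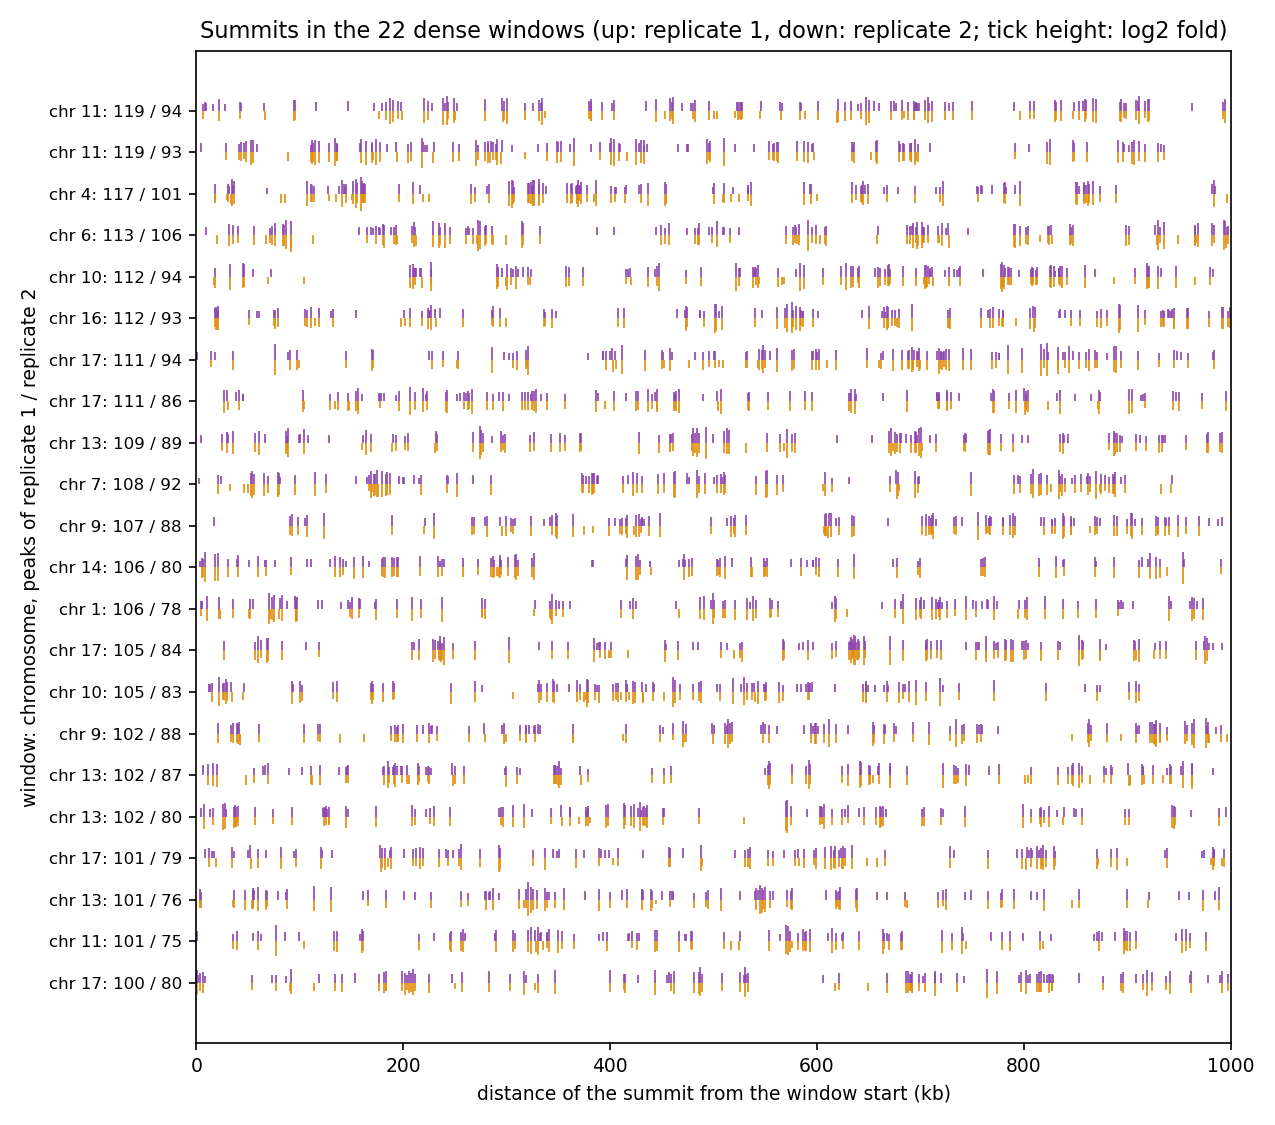
Summits in the 22 dense windows, 1 row per window in order of replicate 1 count, with the distance from the window start in kb on the horizontal axis and the peak numbers of both replicates beside each row. Ticks point up for replicate 1 and down for replicate 2, and their height grows with the log2 fold (from a fixed minimum, capped at a fold of 60). Filled and empty stretches coincide between replicates, and the gap of 134.2 kb is seen in the fifth row.

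Sites in dense windows were closer together in kb. The median distance between successive summits was 4.34 kb in replicate 1 and 5.62 kb in replicate 2, against 9.77 and 12.5 kb in comparison windows. Another summit within 2 kb was present for 47.0% of the replicate 1 peaks (45.0 to 49.0) and 42.9% of the replicate 2 peaks (40.7 to 45.1). In comparison windows these shares were 33.8% and 31.6%, and over all peaks they were 37.3% and 34.1%. All 22 dense windows were above the comparison median in both replicates, and the dense share was higher on each of the 11 chromosomes with a dense window. This share rises with the number of sites in a window, which the choice of windows fixes for replicate 1.

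Measures scaled to the density of each window gave smaller or opposite differences. The ratio of the median to the mean distance in a window had a median of 0.486 in dense and 0.468 in comparison windows in replicate 1, and of 0.538 and 0.499 in replicate 2. Of the dense windows, 20 and 19 lay within the interquartile range of the comparison windows. The ratio was higher in dense windows on 6 of the 11 chromosomes in replicate 1 and on 5 in replicate 2. With windows of at least 110 peaks the difference turned from 0.028 to -0.017 as a mean of both replicates. The distances under 20% of the mean of their own window made up 25.7% and 27.4% in dense windows and 33.5% in comparison windows in either replicate. Those over 2 times that mean made up 14.0% in dense windows in either replicate and 15.6% and 15.8% in comparison windows. Relative to window density, very short distances were thus less frequent in dense windows. The shortest distances were 319 and 240 bp in replicate 1 and 261 and 111 bp in replicate 2. A cut-off at 20% of the mean is shorter in dense windows, where the mean distance was 9.11 kb against 22.75 kb in replicate 1. Median peak widths were nearly equal, at 394 and 382 bp, and the part of peak width in this difference was not tested.

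**Figure D3:**
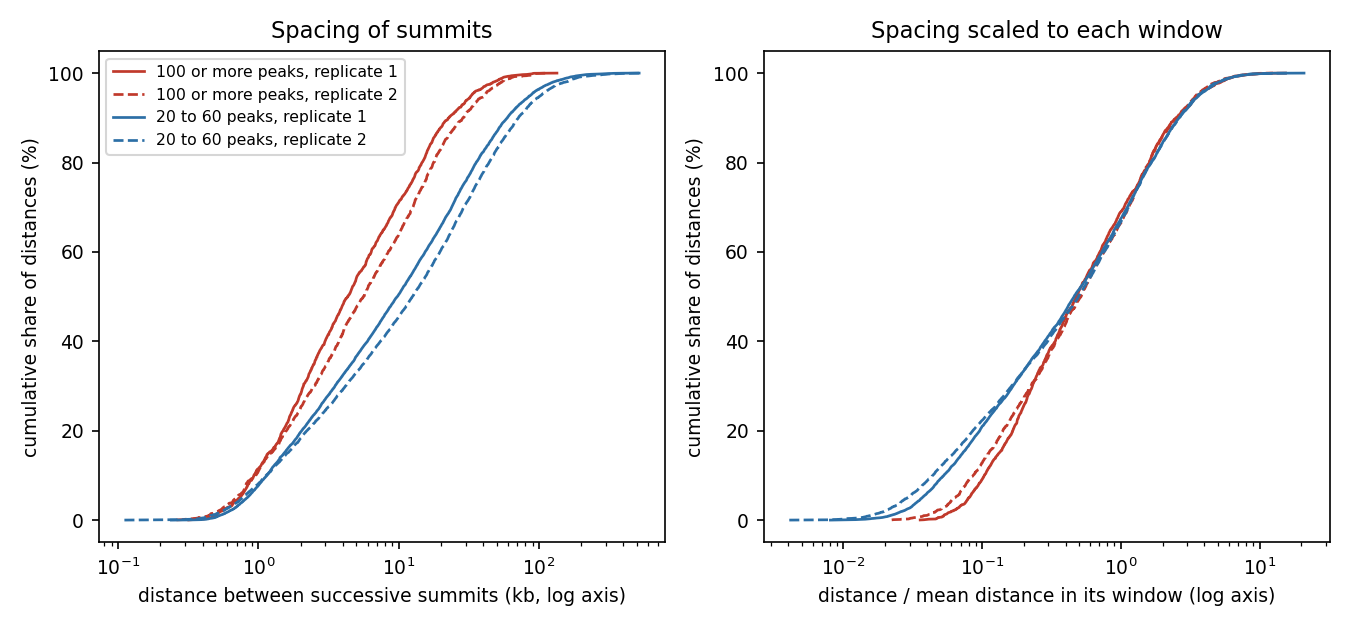
Cumulative share of distances between successive summits, in kb on a log axis (left) and divided by the mean distance of the window on a log axis (right), for dense (red) and comparison windows (blue) in replicate 1 (solid) and replicate 2 (dashed). The curves are apart on the left, with medians of 4.34 and 9.77 kb in replicate 1, and on the right they lie closer together, with the dense curves below the comparison curves among the shortest distances.

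Runs of sites, in which each summit lies at most 2 kb from the next, occurred in all dense windows. They held 45 runs of 4 or more replicate 1 peaks, with 8.91% of their peaks, and 24 such runs in replicate 2, with 5.78%. Comparison windows had 4.02% and 3.31% of their peaks in such runs. Like the neighbour share, the share and length of runs rise with the number of sites in a window. The choice of windows fixes that number for replicate 1. The longest run of a dense window had 10 peaks in replicate 1, on chromosome 17 at 8630579 to 8640516, with folds of 5.53 to 37.2, and 9 of the 10 overlapped a replicate 2 peak. The longest run of a window had a median of 5 and 4 peaks in dense windows and of 3 in comparison windows, and it was above the comparison median in 18 and 16 of the 22. The longest of any comparison window had 7 peaks in replicate 1 and 11 in replicate 2.

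A further 5 runs of 6 or 7 replicate 1 peaks differed in strength and in how well they were found again. The run of 6 on chromosome 13 at 21345555 to 21352396 had folds of 3.63 to 21.9, and all 6 overlapped a replicate 2 peak. On the same chromosome at 38428607 to 38435291, 5 of 6 did, with folds of 2.79 to 30.0. The run of 7 on chromosome 4 at 3366912 to 3371630 reached a fold of 24.4, and 5 of 7 overlapped. That of 7 on chromosome 17 at 3716094 to 3724395 had folds of 3.855 to 12.81, and 4 of 7 overlapped. By contrast, the run of 6 on chromosome 11 at 3693765 to 3698586 had folds of 3.25 to 6.61, and 1 of 6 overlapped a replicate 2 peak. This run was the weakest of the 6 and the least well found again.

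The sites of dense windows had a slightly higher median fold than those of comparison windows. Fold enrichment is the authors' ratio of ChIP to background at the summit. Its median in dense windows was 6.48 in replicate 1 (interquartile range 4.78 to 10.1) and 6.66 in replicate 2 (5.02 to 9.86). In comparison windows it was 6.32 (4.67 to 9.81) and 6.49 (5.02 to 9.59). The dense median was higher by 0.164 and 0.168, and it was higher on 10 and 9 of the 11 chromosomes with a dense window. Of the 22 windows, 19 and 17 had a median within the interquartile range of comparison windows. With peaks of −log10 q of at least 10 the difference was 0.0113 in replicate 1 and 0.136 in replicate 2. Single windows ran from 5.86 (chromosome 10 at 2 to 3 Mb) to 7.35 (chromosome 7 at 4 to 5 Mb) in replicate 1. In replicate 2 they ran from 6.03 (chromosome 13 at 35 to 36 Mb) to 7.80 (chromosome 1 at 52 to 53 Mb).

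Strong sites accompanied the weak ones in number. Folds of 10 or more made up 25.2% of the replicate 1 peaks in dense windows (23.5 to 27.0) and 24.6% of the replicate 2 peaks (22.7 to 26.6). Over all peaks these shares were 24.4% and 23.6%, so the dense windows lay near the background. Folds of 20 or more made up 5.99% (5.11 to 7.02) and 5.16% (4.25 to 6.24), against 5.33% and 4.53% over all peaks and 5.06% (4.65 to 5.51) and 4.32% (3.90 to 4.78) in comparison windows. The intervals of the dense and comparison windows overlapped in each replicate. Per Mb, sites with a fold of 20 or more were 3.10 times as frequent in dense as in comparison windows in both replicates, those of 10 or more 2.73 and 2.75 times, and those under 5 2.46 and 2.48 times. Strong sites were thus enriched at least as much as weak ones, and the difference between these ratios was not tested.

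The windows differed in how many strong sites they held. Chromosome 7 at 4 to 5 Mb had the most sites with a fold of 10 or more, 38 in replicate 1 and 31 in replicate 2. The fewest were 19 in replicate 1, on chromosome 13 at 35 to 36 Mb, and 14 in replicate 2, on chromosome 9 at 41 to 42 Mb. Sites with a fold of 20 or more numbered from 1 (chromosome 9 at 42 to 43 Mb) to 12 (chromosome 13 at 34 to 35 Mb) in replicate 1. These last 2 windows had 107 and 109 replicate 1 peaks, so windows of like density differed in their strongest sites.

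**Figure D4:**
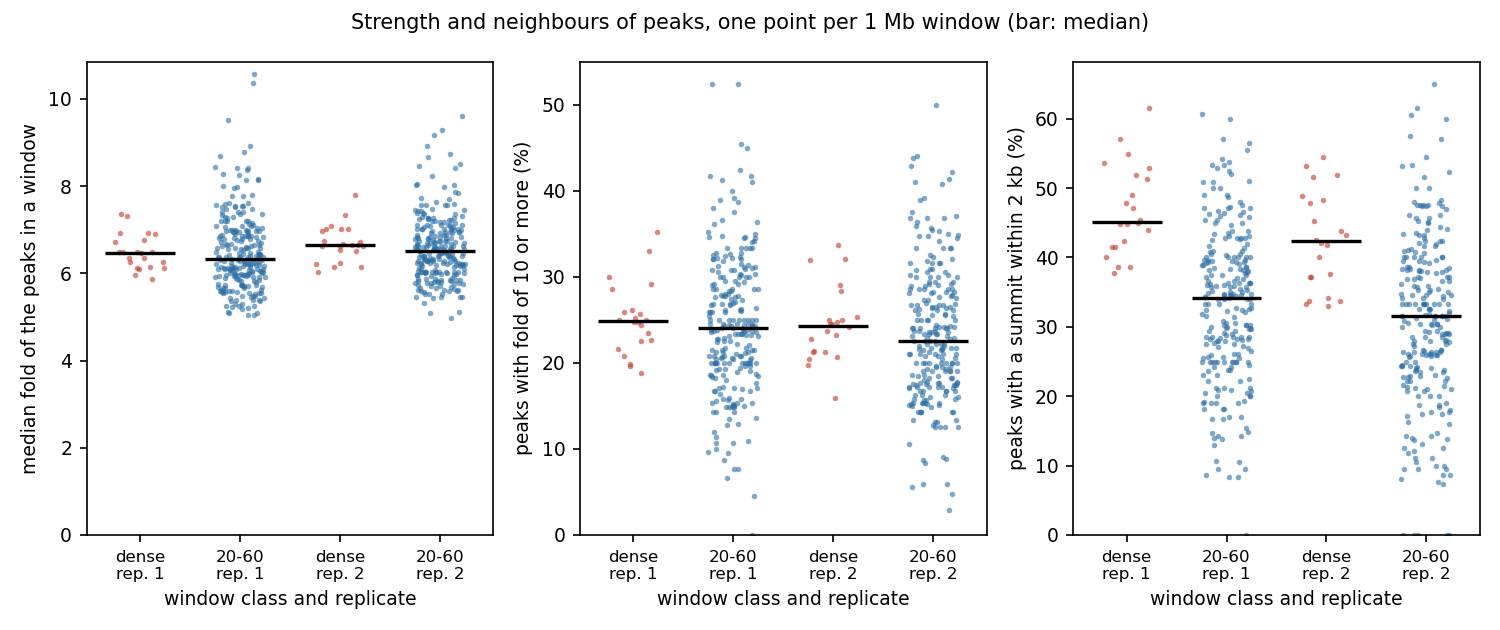
Median fold of the peaks (left), share of peaks with a fold of 10 or more (middle) and share with another summit within 2 kb (right), with 1 point per window, a bar at the median, dense windows in red and comparison windows in blue, for each replicate. Medians of the fold lie close together (6.47 and 6.33 in replicate 1), and the share with a neighbour is higher in dense windows (45.2% and 34.2% in replicate 1).

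The fragments behind the sites also resembled those elsewhere. The pileup, recovered from the deposited fold and p-value as the number of overlapping ChIP fragments at the summit, had a median of 35 in dense and 33 in comparison windows in replicate 1, and of 27 and 26 in replicate 2. The background recovered in the same way, which reflects the input and the genome-wide mean, had medians of 4.36 and 4.30 fragments in replicate 1 and of 2.98 in both classes in replicate 2. Peaks were 394 and 382 bp wide (median) in replicate 1 and 325 and 316 bp in replicate 2. Peaks covered between 4.01% and 5.81% of a dense window in replicate 1 and between 2.64% and 4.22% in replicate 2.

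Each dense window had at least 1 strong site that both replicates placed at the same position. The leading site of a window was the shared site whose lower fold of the 2 replicates was highest. Leading sites had mean folds between 20.2 and 50.2 (median 30.7), and their summits lay at most 64 bp apart between replicates (median 13.5 bp). The replicate 1 fold was the higher one in 11 of the 22. The leading sites with the highest mean folds included 3 on chromosome 13. The site at 35319735 to 35321299 showed a fold of 57.9 in replicate 1 and 42.6 in replicate 2 (50.2 ± 10.8, SD, n = 2), with both summits at 35320202. That at 34273085 to 34274462 had 57.4 and 42.8 (50.1 ± 10.3, SD, n = 2). That at 38570763 to 38571527 had 46.7 and 45.2 (46.0 ± 1.01, SD, n = 2). The first pair thus differed more between replicates than from each other.

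Ranked by the lower of its 2 folds, a chromosome 4 site led, spanning 3158964 to 3159793, with folds of 48.8 and 50.9 (49.9 ± 1.49, SD, n = 2) on 232 and 185 fragments. On chromosome 17 that at 3821936 to 3822667 had 50.6 and 42.4, with 287 and 210 fragments, the highest pileup in replicate 1 among these sites. On chromosome 14, folds at 5953814 to 5954470 were 34.0 and 43.5, and on chromosome 6 that at 3590730 to 3591692 had 35.5 and 38.2. The widest disagreement was on chromosome 16 at 1574931 to 1576536, with 45.3 and 27.9 (36.6 ± 12.3, SD, n = 2). Of the chromosome 11 windows with 119 replicate 1 peaks, that at 3 to 4 Mb had a leading site of 29.8 and 23.4, at 3241986 to 3242609. Of these 22 leading sites, 6 were among the 100 strongest of the 22230 sites found in both replicates, and the best of them had rank 10. The dense windows held 7.72% of all 22230 sites, so this count does not mark them as unusually strong. It covers only the leading site of each window.

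The remaining leading sites had mean folds between 20.2 and 35.9. In descending order they were on chromosome 17 at 8853281 to 8854282 (35.9), chromosome 11 at 1076792 to 1077684 (35.3), chromosome 1 at 52342258 to 52344072 (31.7), chromosome 9 at 41513404 to 41513914 (29.6) and chromosome 10 at 2460394 to 2461025 (29.1). They were followed by chromosome 10 at 48778830 to 48779892 (28.1), chromosome 13 at 21591832 to 21592682 (28.0), chromosome 7 at 4833574 to 4834288 (27.9), chromosome 17 at 4764053 to 4764679 (27.7) and chromosome 11 at 4509324 to 4509973 (25.7). The lowest were on chromosome 17 at 5206370 to 5206927 (25.3), chromosome 9 at 42755146 to 42755652 (22.1) and chromosome 17 at 7177772 to 7178260 (20.2). Most neighbours in this order differed by less than the SD between replicates, which averaged 3.92. That lower fold had a median of 28.7 over the dense windows and of 23.1 over the comparison windows, which offer fewer sites to choose from.

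Replicate agreement in dense windows was close to that of the genome for replicate 1 and slightly above it for replicate 2. Of the 2369 replicate 1 peaks, 1717 had a counterpart in replicate 2, that is, an overlap of 1 bp or more (72.5%, 70.6 to 74.2), against 71.3% (70.4 to 72.2) in comparison windows and 72.0% of all replicate 1 peaks. Of the 1920 replicate 2 peaks, 1772 overlapped a replicate 1 peak (92.3%, 91.0 to 93.4), against 89.0% (88.3 to 89.7) in comparison windows and 89.8% of all. The windows were chosen for many replicate 1 peaks, so the share in replicate 2 is not independent of the choice. Replicate 1 peaks covered 4.86% of the dense and 1.75% of the comparison windows, and the part of this coverage in the difference was not tested.

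The difference depended on what counts as found again. When summits had to lie within 100 bp, dense windows were lower by 0.604 percentage points in replicate 1 and by 0.031 in replicate 2, in place of higher by 1.20 and 3.26. With a reciprocal overlap of 50% the differences were -0.066 and 0.635. In windows picked by replicate 2 instead (the 24 with at least 80 peaks), 74.2% of the replicate 1 peaks (72.5 to 75.9) had a counterpart, against 71.0% (70.3 to 71.7) in windows with 20 to 60 replicate 2 peaks. For replicate 2 peaks it was 91.8% against 89.3%. These windows were chosen for many replicate 2 peaks, so the share in replicate 1 is here not independent of the choice. At −log10 q of at least 10, with the overlap of 1 bp kept, the differences were -0.0094 and 2.97. The direction thus changed with the definition of a counterpart, and for stronger peaks the replicate 1 difference was near 0.

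Agreement differed far more between fold classes than between window classes. In replicate 1, peaks with folds under 4 had a counterpart in 34.1% of cases in dense windows (28.7 to 39.9) and in 35.2% in comparison windows (32.6 to 38.0). For folds of 4 to 6 the shares were 50.3% and 49.7%, and for folds of 6 to 10 they were 88.0% and 87.0%. Of the 597 dense-window peaks with folds of 10 or more, 1 had no counterpart. This was alike elsewhere. For folds of 10 to 20 the share was 99.8% in dense windows, 99.7% in comparison windows and 99.8% over all replicate 1 peaks. For folds of 20 or more it was 100% in each. In replicate 1 the intervals of the window classes overlapped in every fold class.

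In replicate 2 the weak peaks had a counterpart more often in dense windows. The choice of windows for many replicate 1 peaks favours this direction, and its part in the difference was not tested. With folds under 4, 76.4% (68.3 to 82.9) had a counterpart in dense windows and 64.4% (60.4 to 68.3) in comparison windows. With folds of 4 to 6 it was 84.7% (81.8 to 87.3) against 79.7% (78.2 to 81.1). With folds of 6 to 10 it was 97.2% against 96.1%. All 472 dense-window peaks of 10 or more had a counterpart, as had all 1930 of the comparison windows. Over all replicate 2 peaks the shares were 99.96% for folds of 10 to 20 and 100% for 20 or more. Peaks with a background over 20 fragments, of which comparison windows held 50 in replicate 2 and dense windows 1, were nearly all of low fold. Without them the shares for folds under 4 were 77.0% (68.9 to 83.5) and 70.3% (66.2 to 74.1), whose intervals overlapped, and those for folds of 4 to 6 did not change.

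**Figure D5:**
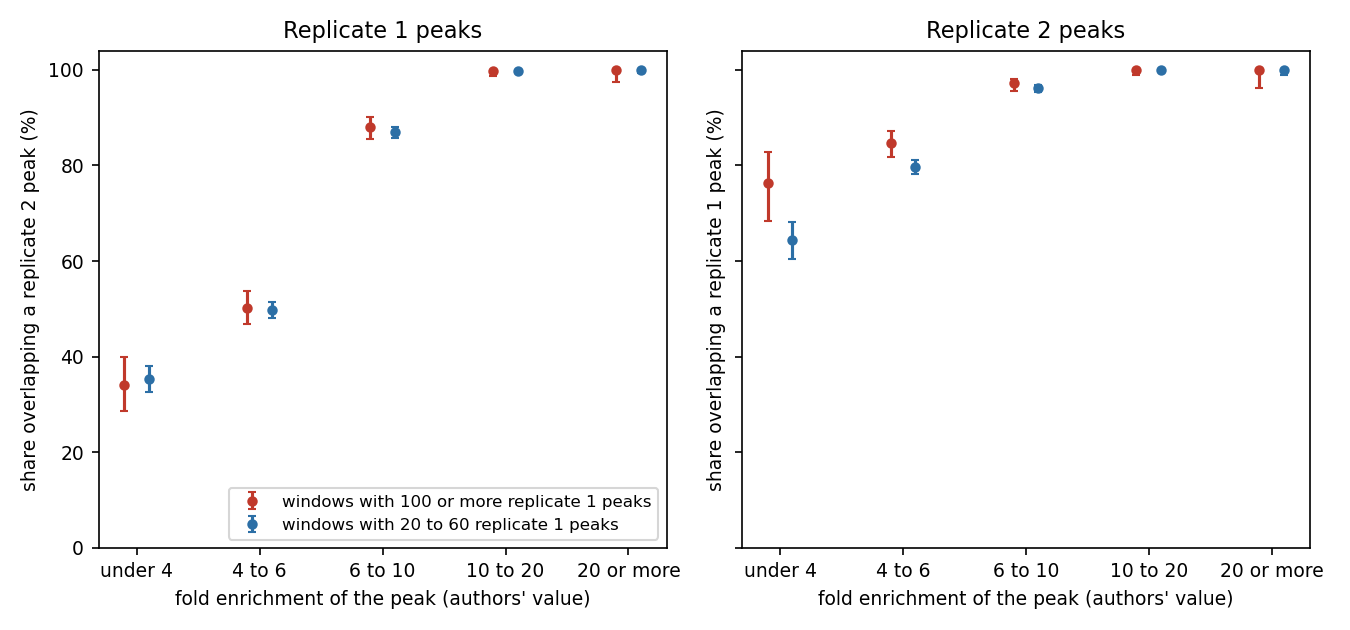
Share of peaks that overlap a peak of the other replicate (vertical axis, percent) by fold class (horizontal axis), for replicate 1 peaks (left) and replicate 2 peaks (right), in dense (red) and comparison windows (blue). Bars are Wilson intervals (95%). Shares rise from about 34.1% to 100% in replicate 1 with no separation of the classes, and in replicate 2 the dense windows are higher below a fold of 6. The choice of windows by replicate 1 count favours overlap of replicate 2 peaks.

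Single windows varied in agreement. The share of replicate 1 peaks with a counterpart ran from 66.0% (chromosome 1 at 52 to 53 Mb) to 80.5% (chromosome 6 at 3 to 4 Mb). In replicate 2 it ran from 84.8% (chromosome 17 at 7 to 8 Mb) to 97.5% (chromosome 14 at 5 to 6 Mb). The extremes in replicate 1 were also the windows with the lowest and the highest ratio of replicate 2 to replicate 1 peaks. Their intervals in replicate 1, 56.6 to 74.4 and 72.3 to 86.8, overlapped. The intervals of the replicate 2 extremes, 75.3 to 91.1 and 91.3 to 99.3, did not. Extremes are picked from all 22 windows, and neither the differences nor an order of the windows by agreement was tested.

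Where both replicates found a site, they measured it alike. The 1716 shared sites of the dense windows had summits a median of 32 bp apart, and 90.3% lay within 100 bp, against 30 bp and 92.7% for the 7260 shared sites of comparison windows. Spearman's rho of the folds was 0.77 in dense and 0.74 in comparison windows, as a description across sites. The SD of the log2 ratio of the folds was 0.45 and 0.48, and 96.4% and 95.3% of the sites lay within 2-fold. Summits were thus slightly less often within 100 bp in dense windows and folds slightly closer, and neither difference was tested. A total of 56 of the 2369 dense-window peaks of replicate 1 overlapped 2 or more replicate 2 peaks. In comparison windows 156 of 10194 did, and over all replicate 1 peaks 532 of 30908. In replicate 2, 2 of 1920 dense-window peaks overlapped more than 1 replicate 1 peak, against 6 of 8335 in comparison windows and 28 of 25350 over all. These differences were not tested.

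Sites of dense windows that were not found again were weak. Among the 652 replicate 1 peaks with no counterpart the median fold was 4.58, and they rested on a median of 23 fragments, against 8.05 and 43 fragments for those with one. For the 148 unmatched replicate 2 peaks the medians were a fold of 4.78 and 18 fragments. The strongest of them in replicate 1 had a fold of 11.9 on 63 fragments and was on chromosome 7 at 4473730 to 4474236. In replicate 2 it had a fold of 7.78 on 30 fragments and was on chromosome 13 at 21047553 to 21047824. In comparison windows the unmatched peaks had medians of 4.58 and 4.65, so weak unmatched sites looked alike in both window classes.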

How the data were processed

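ChIP and input libraries of soybean embryos were crosslinked with 1% formaldehyde for 10 minutes, sonicated to 100 to 500 bp and amplified with 15 PCR cycles, per the labels' protocols. Bowtie 0.12.7 and MACS2 are named in the submitters' processing notes; a MACS2 version and a genome build were not given in the sources used here. The authors deposited a peak list for each ChIP replicate (31090 and 25502 peaks), with a fold (a linear ratio over background), −log10 p and −log10 q, and a score derived from the q-value. Inputs enter only through this peak calling.

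Windows were assigned by summit; 182 and 152 peaks on scaffolds were left out. A counterpart was an overlap of at least 1 bp, and shared sites were one-to-one pairs joined by summit distance. Pileup and background were recovered by solving fold = (pileup + 1)/(background + 1) and the Poisson tail for a whole pileup, which deviated by at most 0.0721% and 0.581% of a step. This takes MACS2 to compute fold and p in its usual way. Read totals were not used, and PCR copies cannot be told from separate molecules without identifiers. The labels call the replicates biological but name no separate plants, so their spread may be technical.

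Every dense window and its strongest shared site is named, with those nearest the threshold and the extremes. Windows, members and rules were chosen with earlier results of these data known. The comparison by chromosome, by position, by background and of scaled distances was added later, as were the 100 kb segments, the named runs and the strongest unmatched sites. The scripts were tested on simulated data. Software was Python 3.11.15 with pandas 2.3.3, numpy 2.4.6, matplotlib 3.10.9 and scipy 1.17.1.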

Additional observations from a re-analysis of the deposited data

How the results depend on the processing

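The median fold stayed higher in dense windows in both replicates under every alternative run, and so did the density ratio and the neighbour share, which the choice of windows by replicate 1 count fixes or favours. Values are means of both replicates, and where they moved by more than the replicate spread the cause was not tested. The number of windows was 45 with a threshold of 90 and 8 with 110, and 20 with windows shifted by 500000 bp. The density ratio (2.61) was 2.42 and 2.80 at those thresholds, 2.79 with the shift (windows re-chosen), 2.67 at −log10 q of at least 10, 2.55 against windows of 30 to 50 peaks and 2.66 for shared sites. It was 2.55 against comparison windows on the same chromosomes and 2.48 against those in the outer 25%. The difference in median fold (0.166) was 0.190 and 0.137 at thresholds of 90 and 110, 0.174 with the shift, 0.203 and 0.0735 at −log10 q of at least 5 and 10 (0.0113 in replicate 1 and 0.136 in replicate 2 at 10) and 0.226 against windows of 30 to 50 peaks. It was 0.125 for shared sites, 0.150 without backgrounds over 20, 0.196 on the same chromosomes and 0.193 in the outer 25%. The neighbour share differed by 12.3 percentage points, by 10.9 and 15.0 at thresholds of 90 and 110, by 6.10 and 18.7 within 1 and 5 kb and by 10.9 for shared sites. The difference in spacing ratio (0.028) turned to -0.0174 at a threshold of 110, and was 0.00739 at −log10 q of at least 10, 0.00967 against windows of 30 to 50 peaks and 0.0648 for shared sites. The counterpart share (2.23 points) turned to -0.317 with summits within 100 bp and was 0.284 with reciprocal overlap of 50%. Leaving out either replicate gave density ratios of 2.59 to 2.62, fold differences of 0.164 to 0.168, neighbour differences of 11.3 to 13.2 and spacing differences of 0.0178 to 0.0390. No paired analysis was possible because no separate input values were used, only peaks already called against input. Unmatched sites of dense windows rested on a median of 23 fragments in replicate 1 and 18 in replicate 2, and read totals were not used. The comparisons on the same chromosomes, by position and by background were chosen after seeing the data, as was applying the thresholds and the shift beyond the window count.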

Other observations

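By replicate 2 counts alone, 6 windows below the threshold of 100 in replicate 1 ranked with the dense ones. They lay on chromosome 10 at 47 to 48 Mb (98 replicate 1 and 90 replicate 2 peaks), chromosome 12 at 5 to 6 Mb (92 and 84), chromosome 11 at 5 to 6 Mb (99 and 82), chromosome 6 at 4 to 5 Mb (98 and 81), chromosome 15 at 5 to 6 Mb (85 and 81) and chromosome 1 at 53 to 54 Mb (86 and 80). Of these, 4 border a dense window. Chromosome 10 at 49 to 50 Mb stood apart in the other direction, with 99 replicate 1 peaks, 63 replicate 2 peaks and rank 113 in replicate 2.

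Peaks with a recovered background over 20 fragments were rare in the dense windows. The replicate 1 peak of this kind was on chromosome 13 at 38816260 to 38817468, with 154 fragments over a background of 23.8. The replicate 2 peak was on the same chromosome at 35444518 to 35444868, with 143 fragments over a background of 79.1 and a fold of 1.80.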
